A study of Homo sapiens with 1 sample.

Results

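The 18S rRNA stretch of the human rDNA unit, with the junctions at both of its ends, was examined in 1 PAR-CLIP library, the negative control of a study of RNA bound by the BRCA1/BARD1 complex. The stretch was taken by position as the 10 bp bins that begin from 3561 to 5611 of the reference unit, which gave 206 of the 4473 bins of the unit and of its 1334 transcribed bins. These are all bins labelled 18S, which span 1860 bases from 3661 to 5520, the last 10 bins labelled 5′ETS and the first 10 labelled ITS1. PAR-CLIP links RNA to bound protein with long-wave UV light after cells have taken up a thiolated nucleoside. The library came from HEK293T cells, a human embryonic kidney line, that stably carried the empty SFB vector, so that the tag (an S-protein-binding tag, FLAG tags and a streptavidin-binding peptide) was fused to no protein. The cells received 0.1 mM of thioguanosine and 0.4 J per square cm of 365 nm light, and RNA was recovered on streptavidin and then FLAG resin. With 1 library there is no replicate error, no comparison between conditions and no test, and all values describe this library.

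RNA polymerase I transcribes the rRNA genes of the acrocentric chromosomes into 1 long precursor, the 45S pre-rRNA. It carries the rRNA of the small ribosomal subunit, 18S, before 5.8S and 28S of the large subunit. The 5′ external spacer (5′ETS) lies upstream of 18S and the internal spacer ITS1 between 18S and 5.8S. Endonucleases and exonucleases remove the spacers: the 5′ end of 18S is made by cleavage in the nucleolus, whereas the 3′ end is cut last, by the endonuclease NOB1 in the cytoplasm. A read of a precursor can therefore run across a junction, and a read of mature 18S cannot.

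The counts are alignments of reads that STAR had left unaligned on the genome (16485622 of 33677888 read pairs, 49.0%) and that BLASTN then placed on the rDNA reference. Reads of rRNA that STAR had placed are not in these bins. Neighbouring bins held nearly the same count, within 1.1-fold in 117 of 185 neighbouring pairs of 18S bins, and an alignment was taken as counted in every bin it covers. A sum over bins is then not a number of reads. An alignment that runs across 2 neighbouring bins is counted in both, so the smaller count is an upper limit for such alignments, and a rise from one bin to the next is the least number of alignments that begin in the higher bin.

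The bins of 18S were all covered, with 0 of them at a count of 0. The lowest bin, from 3741 to 3750, held 14255, the lower quartile was 32972, the median 46901.5, the upper quartile 81139.5, and the highest bin, from 3801 to 3810, held 802954. The highest bin was 17.1 times the median, whereas the lowest was 30.4% of it. The profile of 18S thus rose far above its median at some bins and never fell far below it, and 139 of the bins (74.7%) lay between 0.5 and 2 times the median.

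**Figure D1:**
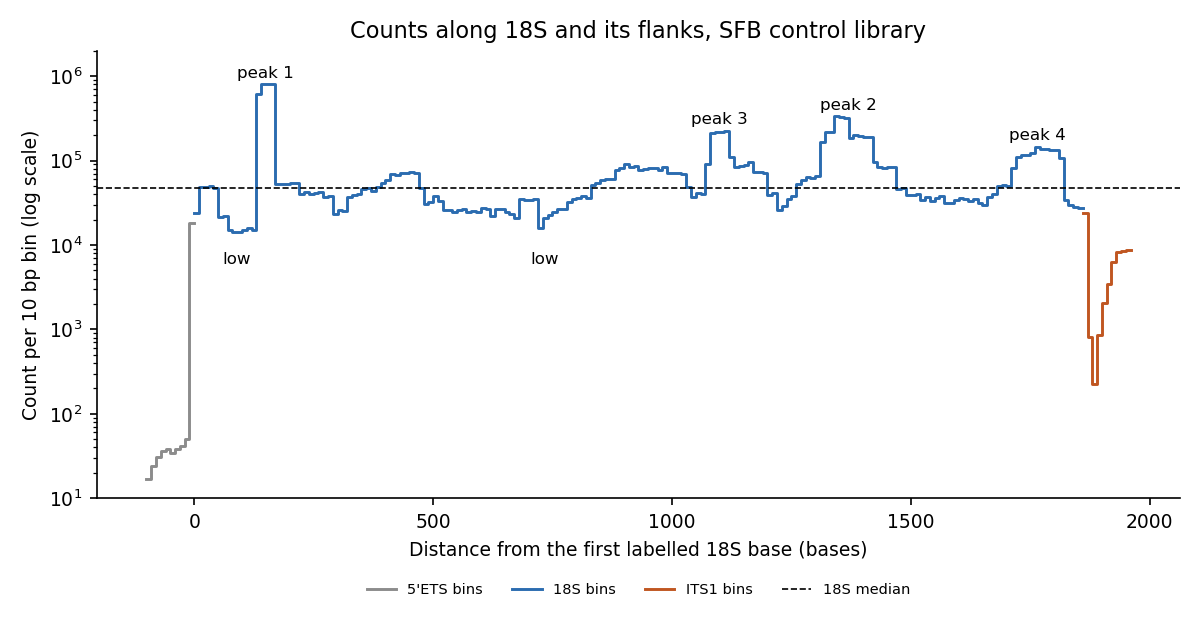
Count per 10 bp bin (log scale) against the distance from the first labelled 18S base, with 5′ETS bins in grey, 18S bins in blue, ITS1 bins in orange and the 18S median of 46901.5 as a dashed line. The profile rises steeply 1 bin before the label of 18S, carries 4 peaks numbered by height, dips at 2 low stretches and falls steeply 1 bin after the label.

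At the 5′ end the count rose from 50 to 17983 between neighbouring bins. The 9 bins of 5′ETS from 3561 to 3650 held 17, 24, 31, 36, 38, 34, 38, 42 and 50. The next, from 3651 to 3660, held 17983, which is 360 times the bin before it. The table labels this bin 5′ETS, but its count lies above the lowest of the 18S bins, which begin with 24164 from 3661 to 3670 and 48005 from 3671 to 3680. By the labels, the mean of the first 10 bins of 18S was 16.7 times that of the last 10 bins of 5′ETS. That ratio was 908 without the bin on each side of the label, since nearly all counts of the 5′ETS side sat in its last bin.

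Almost no alignment crossed the 5′ step. At most 50 of the 17983 alignments in the bin from 3651 to 3660 reached back to the bin from 3641 to 3650, which is 0.278% (95% Wilson interval 0.211% to 0.366%). Such intervals are set around an upper limit, and the share of alignments that crossed was not measured. They cover counting error only, since the reads carry no molecular identifiers and may be copies of 1 molecule. At least 17933 alignments began in the bin of the step. The rise then went on over 2 more bins, with at least 6181 alignments beginning from 3661 to 3670 and at least 23841 from 3671 to 3680. The bin of the step thus held 37.5% of the count reached at 3671 to 3680, and the next bin 50.3%. The 5′ end of 18S was therefore not covered at 1 level from its first base.

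From 3671 to 3710 the counts stayed between 47409 and 49648, and they fell to 21292 in the next bin. At least 26117 alignments ended from 3701 to 3710. This first plateau was 40 bases long and stood directly before the longest low stretch of the gene.

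At the 3′ end the fall was as narrow. It was smaller than the 5′ step as a fold (29.8 against 360) but larger in count (23238 against 17933). The last 4 bins of 18S, from 5481 to 5520, held 33697, 30127, 28412 and 27107. The first bin labelled ITS1, from 5521 to 5530, still held 24046, and the next held 808, a fall of 29.8-fold. The bin labelled ITS1 kept 88.7% of the count of the bin before it, after a gradual fall over the last bins of 18S. By the labels, the mean of the last 10 bins of 18S was 14.4 times that of the first 10 bins of ITS1, and 22.6 times without the bin on each side.

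Few alignments crossed the 3′ step as well, with a higher upper limit than at the 5′ step. At most 808 of the 24046 alignments in the bin from 5521 to 5530 reached the next bin, 3.36% (95% Wilson interval 3.14% to 3.60%). At least 584 of the 808 ended from 5531 to 5540, and at most 224 alignments, 0.932% of the 24046 (95% Wilson interval 0.818% to 1.06%), went on past 5540. The upper limit was thus higher at the 3′ step than at the 5′ step. Both are limits, and the numbers that crossed were not measured. Whether crossing differed between the steps therefore cannot be told from these values or their intervals.

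Beyond the step, ITS1 was not empty. From its lowest bin of 224 (5541 to 5550) the counts climbed through 864, 2035, 3490, 6330, 8206 and 8410 to 8682 from 5611 to 5620, 38.8 times the lowest bin. Over the 9 bins outside each step the median was 3490 in ITS1 and 36 in 5′ETS, a ratio of 96.9. This contrast held next to 18S and not over the spacers as a whole, whose medians were 367.5 over the 366 bins labelled 5′ETS and 406.5 over the 108 bins labelled ITS1. These ITS1 counts come for the most part from alignments that begin downstream of 5550, since no more than 224 could have come from 18S.

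**Figure D2:**
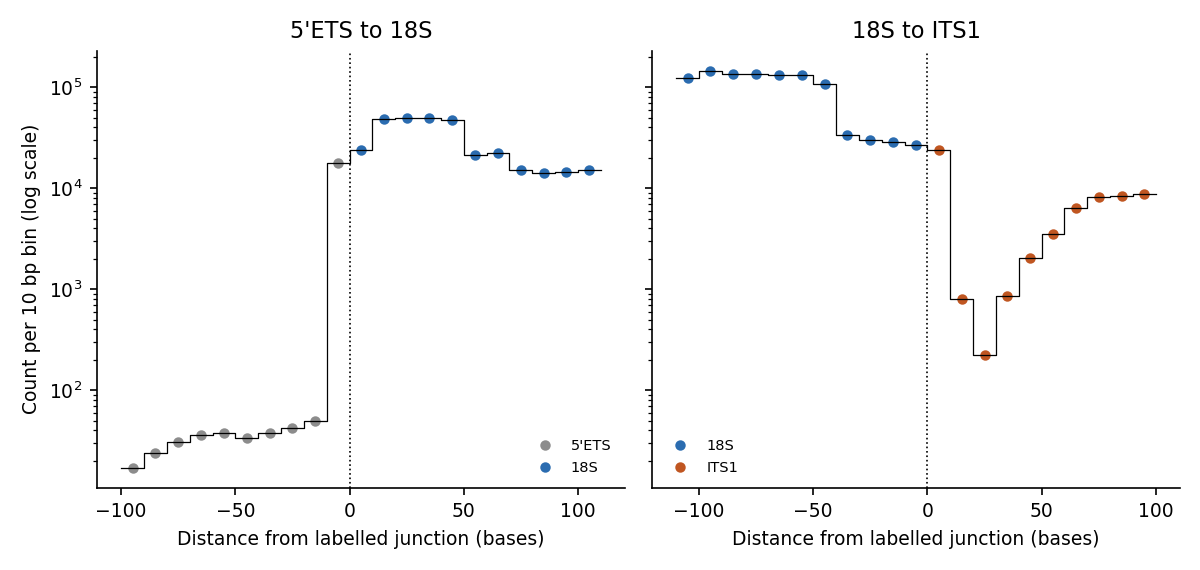
Count per bin (log scale) against the distance from the labelled junction in bases, at the 5′ETS to 18S junction (left) and the 18S to ITS1 junction (right), each point being 1 bin. The count goes from 50 to 17983 at the left step, 1 bin before the label, and from 24046 to 808 at the right step, 1 bin after it, and then climbs again in ITS1.

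The 2 steps enclosed 18S tightly. If the RNA begins within 3651 to 3660 and ends within 5521 to 5530, it is between 1862 and 1880 bases long. All 5 copies of the 18S gene in RefSeq (GRCh38.p14), RNA18SN1 to RNA18SN5, are 1869 bases long, within these limits. On this reading, the region labels of the table leave out the outermost bases of 18S on both sides, 1 bin each. The bin between label and step held 3.95% of all counts labelled 5′ETS and 10.2% of those labelled ITS1. Without it the mean per bin was 1198 in place of 1244 in 5′ETS, and 1988 in place of 2192 in ITS1.

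At each of the 6 ends of mature rRNA the largest change between neighbouring bins was sought within 2 bins of the label, and within that window it lay at most 1 bin from the label. It was 7466-fold at the 3′ end of 28S and 50.2-fold at its 5′ end. It measured 9.10-fold at the 5′ end of 5.8S and 10.1-fold at its 3′ end. The 5′ step of 18S was thus next in size after the 3′ end of 28S among the 6 ends in these windows, and the 3′ step of 18S lay between the 5′ end of 28S and the ends of 5.8S; with 1 library the differences were not tested.

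Inside 18S, 4 peaks stood out, defined as a highest bin of at least 2 times the 18S median from which the count falls to 50% or less on both sides. Their extents at 50% of the height covered 29 bins, 15.6% of 18S, and held 50.7% of its summed counts. The highest peak held 20.1% and the other 3 together 30.6%. Counted from the first labelled base, they began 130, 1320, 1080 and 1710 bases into 18S, in the order of their height, so that 3 of the 4 lay downstream of 4740.

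The highest peak, from 3791 to 3830, was also the most sharply bounded. The bin before it held 15209, its 4 bins held 612146, 802954, 802928 and 802236, and the bin after it held 53221. The rise took 2 bins: at least 596937 alignments began from 3791 to 3800 and at least a further 190808 from 3801 to 3810. The fall took 1 bin, in which at least 749015 alignments ended. The peak kept the same width of 40 bases at 75%, 50% and 25% of its height. At least 91.5% of the alignments in its highest bin therefore lay wholly inside the 40 bases.

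The second peak, from 4981 to 5080, had tiers. The counts rose from 65764 to 165874 at 4971, to 217650 and 220951 from 4981 to 5000, and to 333851, 329336 and 319071 from 5001 to 5030. They then dropped to a shelf of 187397 to 201357 from 5031 to 5080 and to 97182 in the bin after it. The core was thus 30 bases wide, on a base of 100 bases at 50% of the height. Its highest bin was 7.12 times the 18S median. At least 21.2% of the alignments in that bin lay wholly within the 100 bases, a lower limit that is much weaker than for the highest peak.

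The third peak, from 4741 to 4780, was a flat block of 213395, 217531, 220185 and 226521. The bin before held 90114 and the bin after 109058, so it stood on a higher base than the first, and it was 130 bases wide at 25% of its height against 40 at 50%. Like the highest peak, it spanned 40 bases. At least 12.1% of the alignments in its highest bin lay wholly inside it.

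The fourth peak, from 5371 to 5480, was the last feature before the 3′ end. It climbed from 81286 through 109309, 116240, 117782 and 122193 to 146128 from 5421 to 5430. It then held 131851 or more to 5470, fell to 106907 and to 33697 from 5481 to 5490. At least 73210 alignments ended from 5471 to 5480, 3.15 times the least number at the 3′ step itself, 23238. That bin lay 50 bases upstream of the last bin before the step.

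**Figure D3:**
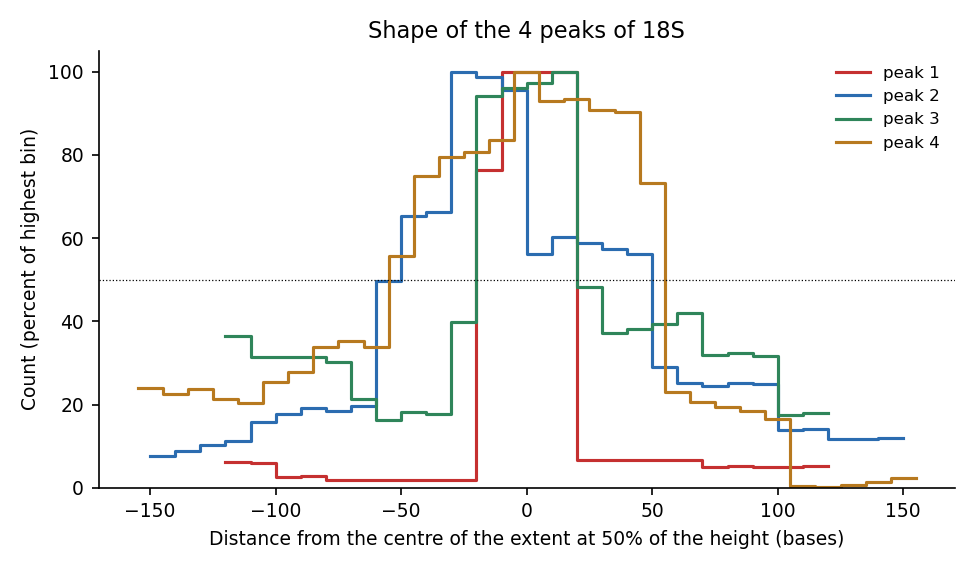
Count as a percentage of each peak's highest bin against the distance in bases from the centre of its extent at 50% of the height (dotted line), for the 4 peaks of 18S. Peak 1 (3791 to 3830) is a block of 40 bases with edges of 1 or 2 bins, peak 3 (4741 to 4780) is as wide but on a higher base, and peaks 2 (4981 to 5080) and 4 (5371 to 5480) are 100 and 110 bases wide.

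With a minimum of 1.5 times the median, 2 lower and broader rises were added. One reached 91302 from 4561 to 4570, 1.95 times the median and just under the limit, and was 210 bases wide at 50% of its height. The other reached 72412 from 4111 to 4120 and was 160 bases wide. Both were wider than a read of 150 bases, unlike the 4 peaks.

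Low stretches were short and shallow. Runs of at least 3 bins under 50% of the 18S median were found at 2 places, with 11 bins in all, or 76 bins where the limit was 50% of the mean, which the highest peak raises. The longer one, from 3711 to 3790, lay between the first plateau of the gene and the highest peak. Its 8 bins held 14255 to 22098, on average 35.5% of the median. The shorter one, from 4381 to 4410, held 16057, 20961 and 22370. A further 4 bins under the limit stood alone or as a pair, at 3951, 4281, 4321 and 4331, with 20646 to 23331. Of the 15 low bins, 0 fell below 25% of the median.

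The highest peak thus began 50 bases downstream of the start of the lowest bin of 18S. The count went from 15209 to 612146 between 2 neighbouring bins, a rise of 40.2-fold and the largest within the gene. The largest fall within the gene, 15.1-fold, was at the other edge of the same peak.

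By median, the level was lower from 3661 to 4590 than from 4591 to 5210. In 6 successive stretches of 310 bases the median per bin was 40956, 37690, 34898, 78168, 81556 and 38467. The stretches from 4591 to 4900 and from 4901 to 5210 thus had the highest medians, and the lower of these medians was 1.91 times the highest of the others. The stretch from 3661 to 3970 held 26.4% of the summed counts in spite of its median, since it contains the highest peak. In 3 parts of equal length, from 3661, 4281 and 4901, the share of the summed counts was 35.1%, 26.8% and 38.1%, and 18.7%, 33.5% and 47.7% without the highest peak. The order of the first and the middle part therefore rested on 4 bins. In all, 50% of the counts were reached by position 4740, or by 4850 without that peak.

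Much of the profile ran in shelves. Likeness of neighbours is in part built in, since an alignment is counted in every bin it covers. Pairs within 1.1-fold made up 63.2% of neighbouring pairs in 18S and 48.6% in 28S, and the shelves of 28S were not counted. Runs of at least 4 neighbouring bins, each within 1.1-fold of the next, numbered 21 and took in 106 of the bins of 18S, a description chosen after the data were seen. Of these shelves, 16 were 40 or 50 bases long, and the longest, from 4561 to 4650, was 90 bases. A shelf ends where many alignments end or begin, and no shelf was as long as a read. Many large falls shared a spacing. Falls of 1.5-fold or more led into bins at 3831, 4131, 4381, 4781, 4881, 5031, 5081, 5131, 5481 and 5531. These starts lie multiples of 50 bases apart and include the bins after all 4 peaks and after the 3′ step. Up to that step, other falls of this size led into 3711, 3951, 4141 and 4861. The spacing was not particular to 18S. Falls of this size in 28S also led into bins multiples of 50 bases apart. Among them were 8321 (151841 to 61089), 8521 (1166 to 63) and 9671 (298125 to 146030). Others in 28S lay off that set, such as the fall into 10311 (365937 to 80709), and the falls of 28S were not counted. The source of the spacing was not tested, nor whether these edges belong to the rRNA itself.

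The alignments on 18S were on average shorter than a full read of 150 bases. No read of 150 bases can lie in bins that are 160 bases apart, so counts of such bins add up without overlap, and the highest total that they reach sets a minimum of 1788404 alignments on 18S. The 15019034 summed counts then amount to at most 8.40 bins per alignment, whereas an alignment over a full read covers 15 or more. With the bins of the highest peak left out, the limit was 11.3 bins per alignment. That number leaves out the bins within the peak of any alignment that runs into it, so it does not limit whole lengths. In 28S, with all bins kept, the limit was 10.2.

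Sharp changes between neighbouring bins were few in 18S. A change of 2-fold or more occurred in 9 of 185 neighbouring pairs (4.86%), with 4 rises and 5 falls. Among all 1333 neighbouring pairs of the transcribed unit the share was 8.25%, and it was 11.3% (57 of 504 pairs) in 28S. Of the 9 changes, 7 lay at an edge of 1 of the 4 peaks or 1 bin outside it. The other 2 were the falls into the low stretches, at 3711 and 4381. This follows in part from the definitions, which cut peaks at 50% of the height and low stretches at 50% of the median. The other 5 changes of 2-fold or more among the 206 bins lay outside the labelled 18S bins, 1 in 5′ETS and 4 in ITS1.

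Compared with 28S, more of the 18S bins lay near the median of their region. The highest bin was 17.1 times the median in 18S and 17.9 times in 28S, the 10% of bins with the highest counts held 42.9% and 41.8% of the counts, and the coefficient of variation was 1.44 and 1.39. These values of 18S rested on its highest peak. Without the highest peak of each region (added once the data had been seen), the highest remaining bin was 7.12 times the median in 18S and 13.2 times in 28S, the highest 10% of bins held 32.1% and 38.8%, and the coefficient of variation was 0.878 and 1.24. Bins above 2 times the median made up 17.2% of 18S (32 bins) and 30.7% of 28S (155 bins). Peaks occurred once per 465 bases in 18S (4 peaks) and once per 459 bases in 28S (11 peaks). The lowest bin was 30.4% of the median in 18S and 0.0481% in 28S. Low stretches took in 5.91% of the 18S bins and 36.6% of the 28S bins (185 of 505), and 32.3% of the 28S bins lay between 0.5 and 2 times their median against 74.7% in 18S. The bins of a region are not replicates and come from 1 library, so the difference between the regions was not tested.

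**Figure D4:**
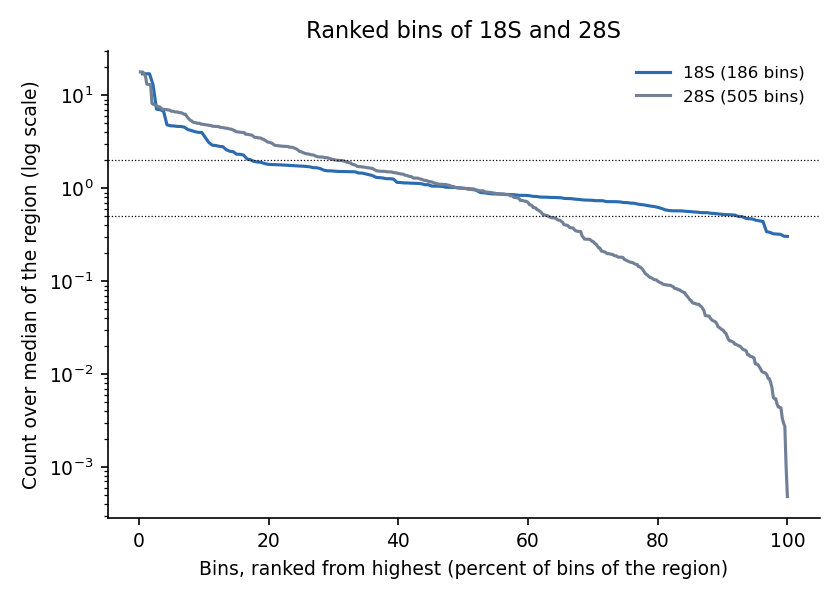
Count of each bin divided by the median of its region (log scale), with the bins ranked from the highest and given as a percentage of the bins, for 18S (blue) and 28S (505 bins, grey). Both curves start near 17 to 18 times the median, and the 18S curve ends at 30.4% of the median whereas the 28S curve falls to 0.0481%; dotted lines mark 0.5 and 2 times the median.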

How the data were processed

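The authors cleaned the reads, aligned them with STAR to the CHM13 genome (v1.1 in the methods; version 2.7.6a of STAR in the submitters' processing notes), aligned the reads left over to the human rDNA reference by BLASTN and deposited counts per 10 bp bin. The methods call these counts normalized, but the values are whole numbers and were used as deposited. Cut-offs for identity or length are not given in the sources used here. The paper names a SMARTer Stranded Total RNA-seq kit for making the libraries. It does not state whether sequences of rRNA were depleted in that preparation. The counts therefore describe the sequenced library and not directly the recovered RNA. Whether the preparation shaped the peaks, the low stretches or the differences between regions was not tested. The STAR gene table gave the depth, and the table of featureCounts 2.0.2 was not used. Positions are those of the rDNA reference and not of a chromosome.

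Bins were summarised with numpy 2.4.6 and pandas 2.3.3 in Python 3.11.15, intervals were computed with SciPy 1.17.1 and plots drawn with matplotlib 3.10.9. The bins named are the 4 peaks, the low stretches, the lowest bin, the 10 bins on each side of both junctions and the largest rise and fall. Low stretches are runs of 3 or more bins under 50% of the 18S median. The code was tested on simulated data. The stretch, the rules and the alternatives were chosen with earlier results of these data known. Alternatives were other flank widths, medians, limits and baselines, and the removal of the highest peak or the outer bins.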

Additional observations from a re-analysis of the deposited data

How the results depend on the processing

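No paired analysis was possible because the study's control is a single library. Any change in a printed ratio or share is given as a change, since bins have no replicate error; causes beyond the construction of each setting were not tested. The step at the 5′ETS to 18S label, 16.7 by means of 10 bins, was 1.34 with 1 bin, 6.72 with 3 bins and 12.0 with 5 bins on each side, 625 by medians, 908 without the bin next to the label and, chosen after seeing the data, 951 with the junction moved 1 bin upstream. The step at the 18S to ITS1 label, 14.4, was 1.13, 3.42, 8.09, 24.3, 22.6 and 16.7 in the same order, with the junction moved 1 bin downstream. All 14 values were above 1. The 4 peaks were 6 with a minimum of 1.5 times the median, 3 with the mean as the baseline, and 4 with a minimum of 3 times the median or a fall to 75% or 25%. The 11 bins in low stretches were 15 with no minimum length, 0 with a limit of 25% of the median and 76 with the mean as the baseline, which the highest peak raises. The 3 equal parts held 35.1%, 26.8% and 38.1% of the counts; these shares were 18.7%, 33.5% and 47.7% without the highest peak and 25.2%, 31.8% and 43.1% with bins capped at 5 times the median. The share of the highest 10% of bins, 42.9%, was 32.1% without that peak and 44.2% without the outer 10 bins, and the coefficient of variation, 1.44, was 0.878 and 1.46. Neighbouring changes of 2-fold or more, 4.86%, were 11.4% at 1.5-fold, 29.3% for bins 5 apart and 3.89% without the highest peak, a setting added once the data had been seen.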
